A study of Homo sapiens with 3 samples.

Results

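The miR-23, miR-27 and miR-24 clusters were followed through the SK-MEL-2 plasma series as 10 mature miRNAs, the guide and passenger arms named for the paralogous clusters MIR23A/MIR27A/MIR24-2 and MIR23B/MIR27B/MIR24-1. All 10 were among the 2588 human miRNAs listed for each library, and 9 of them reached a mean of 20 counts over the 3 libraries, the level required here for a ratio. The exception was miR-23a-5p. SK-MEL-2 is an established human melanoma cell line. The groups were untreated control cells and cells put under a plasma jet, a flow of partly ionised gas, for 3 min or for 5 min. All were kept in RPMI-1640 medium with serum and antibiotics, and all were taken on Day 2. Each group has a single library, so no value below has a replicate check or a test, each ratio compares libraries rather than conditions, and every interval is an exact 95% interval that covers counting error only. In bulk RNA, fewer cells of a type and less of a miRNA per cell cannot be told apart.

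Each cluster is transcribed as a primary RNA that holds a miR-23, a miR-27 and a miR-24 hairpin. Drosha and Dicer cut each hairpin to a short duplex, 1 strand of which (the guide) is kept in Argonaute and represses mRNAs through its seed, bases 2 to 8, while the other (the passenger) is mostly degraded. miR-27 is known for repressing PPARG, a driver of fat cell differentiation, and miR-24 for repressing MYC, E2F2 and the histone variant H2AX.

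The guide arms of each paralog pair share a seed and differ near the 3′ end, so they are shown first, with the seed in capitals (RefSeq, GRCh38.p14). All 10 members matched an entry there.
hsa-miR-23a-3p: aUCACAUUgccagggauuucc
hsa-miR-23b-3p: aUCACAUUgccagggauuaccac
hsa-miR-27a-3p: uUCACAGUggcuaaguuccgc
hsa-miR-27b-3p: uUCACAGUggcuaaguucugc
hsa-miR-24-3p: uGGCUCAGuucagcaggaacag

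Counted from 1 at the 5′ end, the miR-23 pair differed by U19A and by 2 further bases at the 3′ end of miR-23b-3p, and the miR-27 pair by C19U alone. Reads that end before position 19 cannot be assigned to a paralog. The guide of MIR24-1 is identical to that of MIR24-2, so miR-24-3p carries the reads of both clusters. How reads matching several miRNAs were counted is not given in the sources used here, and the separate values of miR-23a-3p, miR-23b-3p, miR-27a-3p and miR-27b-3p are therefore uncertain. Moving a read between paralogs leaves the sum of the pair as it is, though dropping it or counting it for both would not.

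The passenger arms differ more between paralogs, apart from a shared seed in the miR-23 pair and in the miR-24 pair, and can be told apart. The miR-27 passengers differed at 8 of 22 positions, including G3A within the seed, and the miR-24 passengers at 6 of 22, all beyond it.
hsa-miR-23a-5p: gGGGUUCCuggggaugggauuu
hsa-miR-23b-5p: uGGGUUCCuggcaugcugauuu
hsa-miR-27a-5p: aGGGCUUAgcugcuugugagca
hsa-miR-27b-5p: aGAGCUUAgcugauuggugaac
hsa-miR-24-2-5p: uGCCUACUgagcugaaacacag
hsa-miR-24-1-5p: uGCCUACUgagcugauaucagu

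In the order of transcription, MIR23A (chr19:13836587-13836659), MIR27A (chr19:13836440-13836517) and MIR24-2 (chr19:13836287-13836359) lie on the minus strand within 373 bases, inside MIR23AHG, their non-coding host gene, and GENCODE release 29 places an exon of a non-coding transcript over them. MIR23B (chr9:95085208-95085304), MIR27B (chr9:95085445-95085541) and MIR24-1 (chr9:95086021-95086088) lie on the plus strand within 881 bases, inside AOPEP, an aminopeptidase gene called C9orf3 in that release. MIR23B and MIR27B are intronic there, and MIR24-1 overlaps an annotated exon. The MIR3074 hairpin (chr9:95086014-95086094) lies over MIR24-1 on the opposite strand. The build used for counting is not given in the sources used here, and these positions come from the annotation alone.

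**Figure D1:**
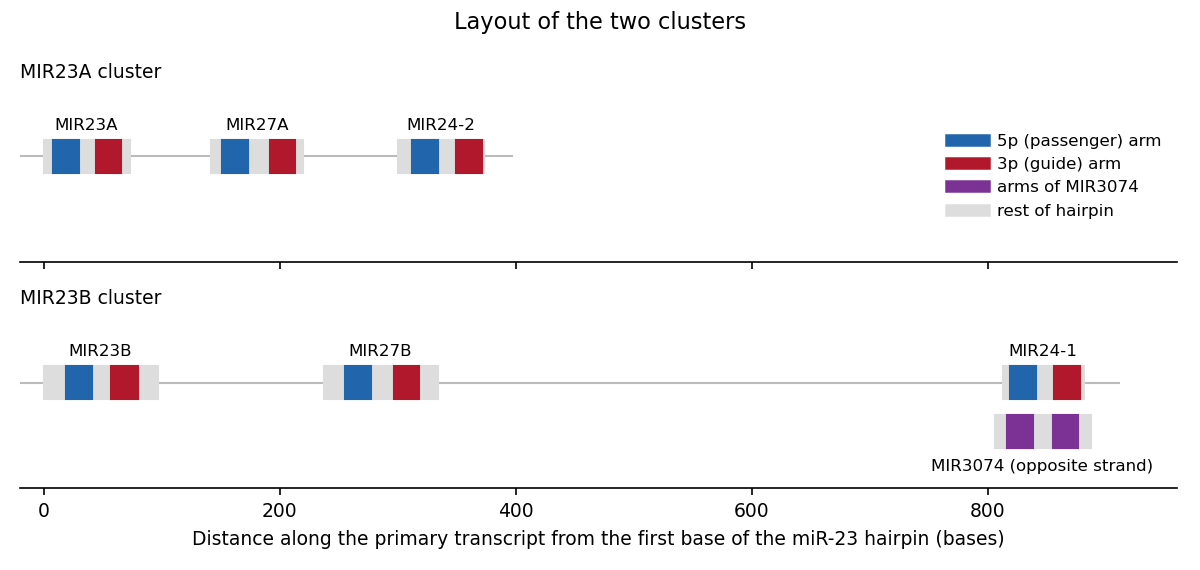
Map of both clusters to scale, with the distance in bases along the primary transcript from the first base of the miR-23 hairpin. Grey boxes are hairpins, blue and red boxes their 5p and 3p arms; the hairpins span 373 bases in the MIR23A cluster and 881 bases in the MIR23B cluster, where MIR3074 lies over MIR24-1 on the opposite strand.

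The hairpins of MIR23B, MIR27B and MIR27A are printed because the balance of their arms is described below, with a limit on miR-23b given there. Both annotated arms are in capitals, the 5p (passenger) arm first and the 3p (guide) arm second.
MIR23B: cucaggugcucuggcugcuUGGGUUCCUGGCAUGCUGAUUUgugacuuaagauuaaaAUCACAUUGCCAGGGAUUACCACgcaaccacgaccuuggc
MIR27B: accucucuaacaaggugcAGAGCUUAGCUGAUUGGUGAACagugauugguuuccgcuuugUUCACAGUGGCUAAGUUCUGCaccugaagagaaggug
MIR27A: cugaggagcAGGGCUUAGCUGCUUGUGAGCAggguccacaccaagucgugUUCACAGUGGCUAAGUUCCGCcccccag

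Library totals were 1045482 counts (control), 966943 (3 min) and 615645 (5 min), so a single count was worth 0.956, 1.03 and 1.62 CPM, the count scaled to the library total. Of the listed miRNAs, 231 passed the count minimum. The cell line label was set against 5 melanocytic miRNAs: miR-204-5p, miR-211-5p and miR-146a-5p were present in every library, and miR-509-3p and miR-514a-3p were at 0 in all 3. Fibroblast markers, almost all of them miR-199a-3p, summed to 4120, 5120 and 5780 CPM in control, 3 min and 5 min libraries, and 2 endothelial markers to 313, 338 and 378 CPM. Sums of 7 blood markers were 16.3, 21.7 and 22.7 CPM, of 6 epithelial markers 15.3, 29 and 71.5 CPM, and of 3 muscle markers 0.956, 3.10 and 24.4 CPM. Of the muscle markers, miR-1-3p had 0, 3 and 15 counts, miR-133a-3p 1, 0 and 0, and miR-206 was at 0 in all 3. Most epithelial counts were miR-200b-3p (6, 13 and 20) and miR-200c-3p (6, 8 and 17), and miR-205-5p was at 0 throughout. Fibroblast miR-214-3p and miR-145-5p were at 0 after 5 min. The fibroblast, epithelial and muscle sums thus rested on few of their markers. The melanocytic sum was 3880, 4210 and 4000 CPM. The sums printed here were higher in the plasma libraries than in the control, while the passenger arms below were lower. Single melanocytic markers differed after 5 min against control, scaled as below. miR-204-5p was 1.23-fold lower (1.15 to 1.32) and miR-146a-5p 1.46-fold higher (1.34 to 1.58). miR-211-5p was 1.17-fold lower (0.860 to 1.60), an interval that held no difference. The part of any of these markers in the values below was not tested.

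Together the 10 members held 7.49% of the control counts, 7.37% after 3 min and 7.99% after 5 min. Nearly all of this was guide arm. The 5 guide arms summed to 7.26% of the control library (interval 7.21 to 7.31), 7.18% at 3 min (7.13 to 7.23) and 7.84% at 5 min (7.77 to 7.91). The 5 passenger arms summed to 0.231% (0.222 to 0.241), 0.194% (0.185 to 0.203) and 0.152% (0.142 to 0.162). None of these intervals overlapped between libraries for the passenger sum, which was lowest after 5 min.

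hsa-miR-27b-3p was the most abundant member, with 36276 control counts, 34077 at 3 min and 24137 at 5 min, or 34700, 35200 and 39200 CPM. It ranked 5, 5 and 4 among all listed miRNAs. hsa-miR-27a-3p had 18427, 16755 and 11307 counts (17600, 17300 and 18400 CPM), and the shared hsa-miR-24-3p had 16037, 13782 and 9377 (15300, 14300 and 15200 CPM). The miR-23 guides were scarcer. hsa-miR-23b-3p had 3170, 2878 and 1949 counts (3030, 2980 and 3170 CPM), and hsa-miR-23a-3p had 1982, 1920 and 1506 (1900, 1990 and 2450 CPM). All guide arms except miR-23a-3p stayed within a narrow band of CPM over the 3 libraries, and miR-23a-3p stood highest after 5 min.

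The passenger arms were spread over a wider range. hsa-miR-27a-5p led with 1491 counts in the control library, 1207 at 3 min and 559 at 5 min (1430, 1250 and 908 CPM), and hsa-miR-24-2-5p followed with 727, 530 and 321 (695, 548 and 521 CPM). hsa-miR-27b-5p had 125, 88 and 39 counts (120, 91.0 and 63.3 CPM), although its guide was the most abundant of all members. hsa-miR-23b-5p had 65, 43 and 14 counts (62.2, 44.5 and 22.7 CPM), and hsa-miR-23a-5p had 11, 9 and 3 (10.5, 9.31 and 4.87 CPM). In CPM, each of the 5 passenger arms was highest in the control and lowest after 5 min. The order of the 10 members was the same in each library, and neighbours in it had counting intervals that did not overlap, except miR-23b-5p and miR-23a-5p after 5 min (12.4 to 38.2 CPM and 1 to 14.2 CPM). Adapter ligation favours some RNA ends, so levels of different arms within a library are not molar amounts.

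**Figure D2:**
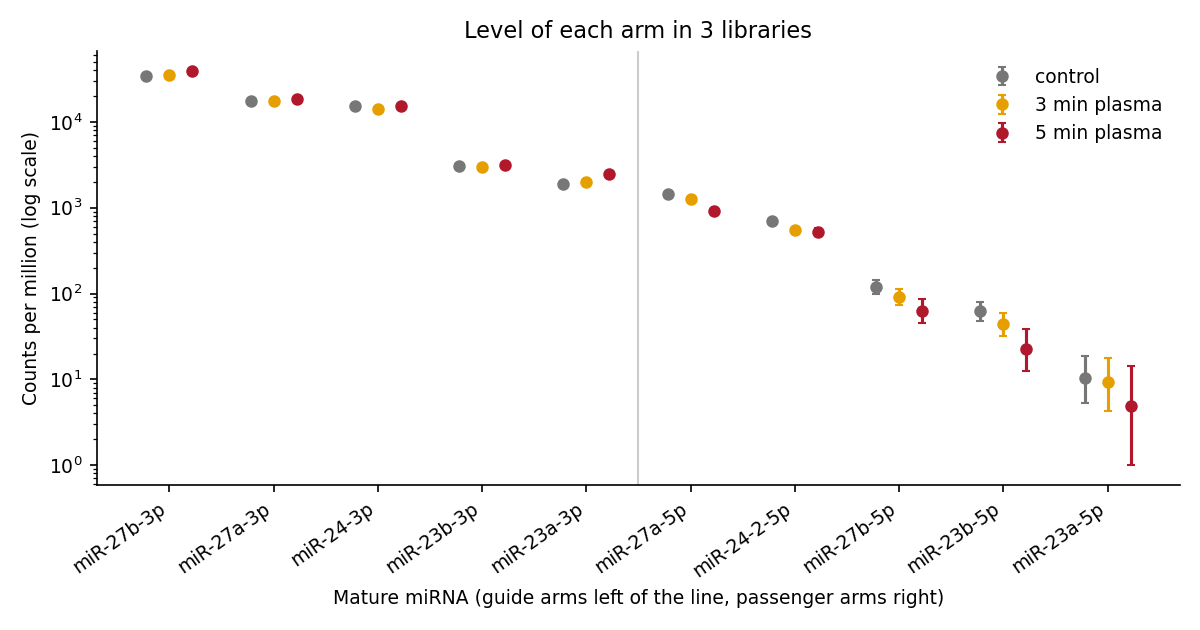
CPM of the 10 members (log scale) in the control, 3 min and 5 min libraries, with exact 95% counting intervals as bars, 1 library per point. The guide arms, left of the line, lie close together over the libraries, while each passenger arm, right of the line, is lowest after 5 min of plasma.

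For the longer exposure, the 5 min library was set against the control. Counts were scaled by TMM, which sets the typical miRNA to no difference, and a ratio of at least 2-fold was the size rule. The 4 passenger arms that passed the count minimum were all lower after 5 min, by 1.34-fold to 2.76-fold, while the 5 guide arms lay between 1.02-fold lower and 1.28-fold higher. Of the 9 members, 1 was at least 2-fold lower, against 3.46% of the 231 miRNAs, and 0 were at least 2-fold higher, against 9.52%. At 1.5-fold, 3 of 9 were lower (11.7% of all) and 0 higher (17.3% of all). The member 2-fold lower was miR-23b-5p, which passed the count minimum through its counts in the control (65) and at 3 min (43), with 14 at 5 min, so nothing is read from that share. The number was 2 with TMM or DESeq2 size factors over all listed miRNAs and with no count minimum, and 0 with a mean of at least 100 counts. The median log2 ratio was -0.02 over the 9 members and 0.05 over all 231, a small difference between medians that hides the split between arms: it was 0.05 for guide arms and -0.80 for passenger arms.

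hsa-miR-23b-5p, with 14 counts after 5 min against 65 in the control, was 2.76-fold lower (1.53 to 5.32). Its interval reached below the 2-fold rule. miR-27b-5p, with 39 counts against 125, was 1.90-fold lower (1.32 to 2.80), just short of the rule. miR-27a-5p, with 559 counts against 1491, was 1.58-fold lower (1.44 to 1.75), and miR-24-2-5p, with 321 against 727, was 1.34-fold lower (1.18 to 1.54). All 4 intervals lay below no difference, and these directions held in each of the 7 scalings tried. Many other miRNAs also had counting intervals off no difference after 5 min, so such an interval alone does not set these arms apart. miR-23a-5p, below the count minimum with 3 counts against 11, had a ratio of 0.460 (0.0823 to 1.74), an interval that held no difference.

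Among the guide arms, miR-23a-3p had 1506 counts in the 5 min library, against 1982 in the control. Scaled, it stood 1.28-fold higher (1.20 to 1.37), and it was above control in each of the 7 scalings. miR-27b-3p was 1.12-fold higher (1.10 to 1.14) and miR-27a-3p 1.03-fold higher (1.01 to 1.06). miR-23b-3p had a ratio of 1.04 (0.979 to 1.10) and miR-24-3p of 0.985 (0.960 to 1.01). The directions of miR-27b-3p, miR-27a-3p and miR-23b-3p turned round under 2 of the 7 scalings, so for these 3 guides no direction can be read. As seed families, the miR-27 guides together stood at 1.09-fold (1.08 to 1.11) and the miR-23 guides at 1.13-fold (1.08 to 1.18) of control. Both totals changed sign under 1 or more other scalings.

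After 3 min the same arms lay closer to control. Here 0 of 9 members reached 2-fold in either direction (0.866% of all miRNAs were at least 2-fold lower and 2.16% higher), and 0 reached 1.5-fold (5.19% lower and 6.93% higher). The median log2 ratio was -0.09 over the members and 0.05 over all 231 miRNAs. The 4 passenger arms were again all below control. miR-23b-5p, with 43 counts after 3 min against 65, was 1.39-fold lower (0.928 to 2.09), and miR-27b-5p, with 88 against 125, was 1.30-fold lower (0.983 to 1.73); both intervals held no difference. miR-24-2-5p was 1.26-fold lower (1.12 to 1.41) with 530 counts against 727, and miR-27a-5p 1.13-fold lower (1.05 to 1.22) with 1207 against 1491. The guide arms ranged from 1.07-fold lower for miR-24-3p (1.04 to 1.09) to a ratio of 1.06 for miR-23a-3p (0.992 to 1.13). miR-27b-3p had a ratio of 1.03 (1.01 to 1.04), whose direction turned round under 2 of the 7 scalings. Both exposures are set against the same control library, so their likeness is not independent evidence.

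**Figure D3:**
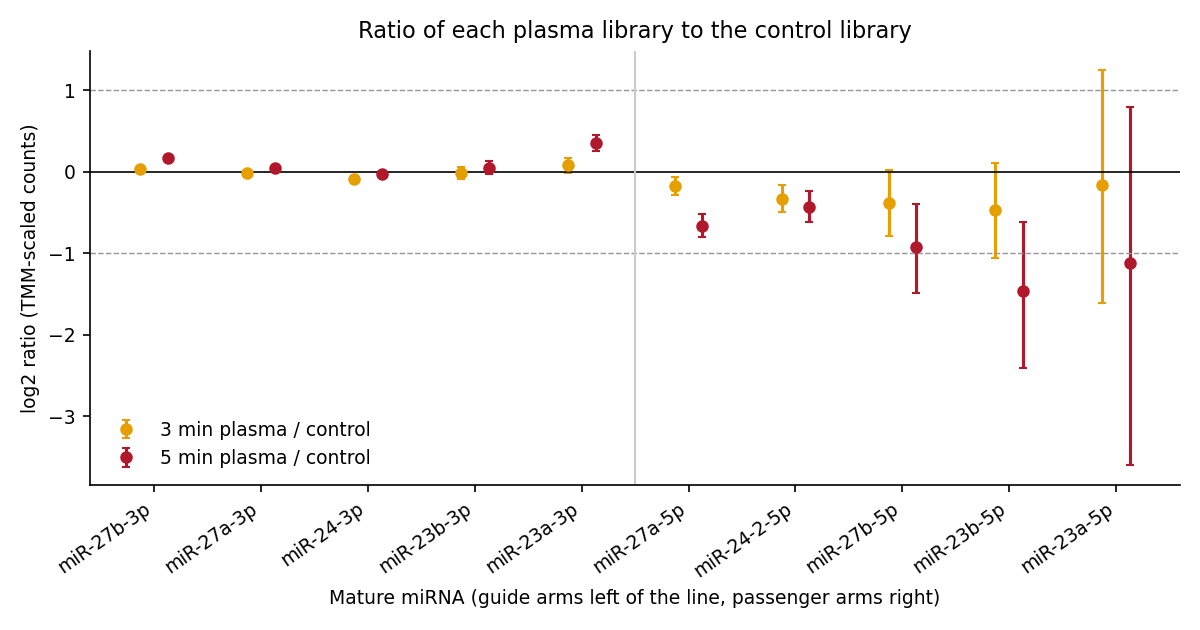
Log2 ratio of each plasma library to the control library, from TMM-scaled counts, for the 10 members; bars are exact 95% counting intervals and dashed lines mark 2-fold. The 4 passenger arms that passed the count minimum lie below 0 at both exposures, with miR-23b-5p lowest after 5 min at 2.76-fold lower.

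The exposures were then set against each other, 5 min over 3 min, without the control library. The ratio of miR-27a-5p was 0.715 (0.646 to 0.791), with 559 counts after 5 min against 1207 after 3 min, that is, 1.40-fold lower. miR-23b-5p was 1.99-fold lower (1.07 to 3.94), with 14 counts against 43, and the 1506 counts of miR-23a-3p, against 1920, made it 1.21-fold higher (1.13 to 1.30). These 3 intervals lay off no difference. So did those of miR-27b-3p at 1.09 (1.08 to 1.11), miR-24-3p at 1.05 (1.02 to 1.08) and miR-27a-3p at 1.04 (1.02 to 1.07), while that of miR-23b-3p at 1.05 (0.987 to 1.11) held it. The directions of these 4 guides turned round under other scalings. miR-27b-5p at 1.46-fold lower (0.992 to 2.19) and miR-24-2-5p at 1.07-fold lower (0.929 to 1.23) had intervals that held it. miR-24-2-5p thus had most of its distance from control after 3 min, and miR-27a-5p most of its own after 5 min. At 2-fold, 0 of 9 members were lower (0.866% of all) and 0 higher (6.49%). At 1.5-fold, 1 of 9 was lower (8.66%) and 0 higher (13.0%). The members' median log2 ratio was 0.06, against 0.02 over all 231 miRNAs, but it was -0.053 with TMM over all listed miRNAs, -0.076 with DESeq2 size factors over all and -0.019 with no count minimum.

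The balance of the 2 arms within a hairpin needs no scaling between libraries, and the data were therefore also read that way. miR-27a-5p made up 7.49% of its hairpin's counts in control cells (7.12 to 7.86), 6.72% (6.36 to 7.10) at 3 min and 4.71% (4.34 to 5.11) at 5 min. miR-24-2-5p made up 4.34% of the counts it forms with miR-24-3p (4.03 to 4.66), then 3.70% (3.40 to 4.03) and 3.31% (2.96 to 3.69). miR-23b-5p made up 2.01% (1.55 to 2.55), 1.47% (1.07 to 1.98) and 0.713% (0.390 to 1.19). For all 3 hairpins the 5 min interval lay wholly below the control interval.

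hsa-miR-27b-5p made up 0.343% of its hairpin in the control library (0.286 to 0.409), 0.258% at 3 min (0.207 to 0.317) and 0.161% at 5 min (0.115 to 0.220). In reads, that was 290, 387 and 619 guide counts per passenger count. miR-23a-5p made up 0.552% (0.276 to 0.985), 0.467% (0.214 to 0.884) and 0.199% (0.0410 to 0.580), with overlapping intervals. The point values of all 5 hairpins therefore ran in the same order, highest in the control and lowest after 5 min. For miR-23a this rests on 11, 9 and 3 passenger counts, below the count minimum. The order was not particular to these clusters. The minor arms miR-29b-1-5p, miR-16-1-3p and miR-125b-1-3p ran the same way within their hairpins, and miR-3065-5p and miR-335-5p the opposite way.

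**Figure D4:**
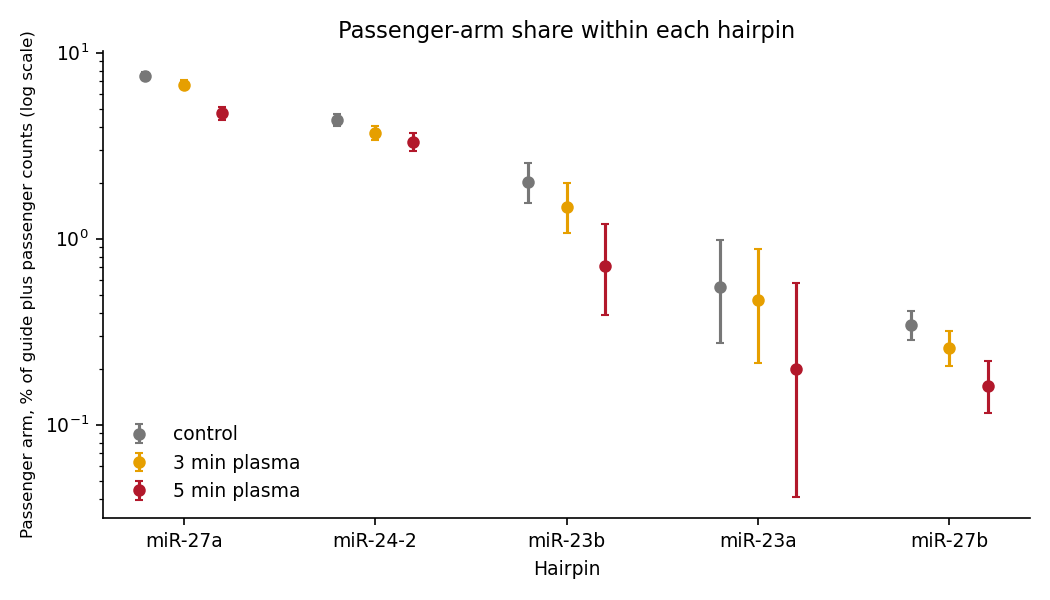
Passenger-arm share, in percent of guide plus passenger counts (log scale), for 5 hairpins in the control, 3 min and 5 min libraries, with exact 95% counting intervals as bars. Each hairpin is highest in the control and lowest at 5 min (7.49%, 6.72% and 4.71% for miR-27a), and the intervals of miR-23a overlap.

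An arm shift was taken as the guide-to-passenger ratio in 1 library over that in the other, with an exact conditional interval. After 5 min against control it was 2.85-fold for miR-23b (1.58 to 5.52), 2.13-fold for miR-27b (1.48 to 3.14), 1.64-fold for miR-27a (1.48 to 1.81) and 1.32-fold for miR-24-2 (1.16 to 1.52). All 4 went towards the guide, with intervals above no shift. Of these, 2 reached 2-fold and 3 reached 1.5-fold, against 7.84% and 21.6% of the 51 hairpins of which both arms passed the count minimum (each taken towards its more abundant arm, and the 4 included). Towards the minor arm, 0 of the 4 reached either size, against 5.88% at 2-fold and 17.6% at 1.5-fold of the 51. Intervals off no shift were common: of the 51, 15 had one above it (the 4 included) and 8 had one below it. These 4 hairpins ranked 1, 4, 8 and 15 of 51 by shift towards the major arm. The first of them, miR-23b, is among the 51 through the counts of miR-23b-5p in the control (65) and at 3 min (43), with 14 at 5 min. Nothing is therefore read from the shares at 2-fold and 1.5-fold or from that rank. In absolute size, the opposite shift of miR-3065 exceeded that of miR-27b, and several opposite shifts exceeded that of miR-27a. Over the 47 other hairpins the shift went in both directions, 25 towards the major arm and 22 towards the minor arm, with a median of 1.01-fold, against 1.87-fold for the 4. Of these 47, 11 had an interval above no shift and 8 had one below it. Over these 47, a lower minor arm was thus not general in the 5 min library. A shift towards the major arm was more common where the minor arm was best counted, with a mean of at least 412.3 counts. There miR-125b with miR-125b-1-3p (1.99-fold), let-7a (1.73-fold), miR-140 (1.54-fold), miR-30a (1.5-fold) and miR-22 (1.21-fold) shifted as the 4 did. So did let-7d (1.17-fold), with an interval that held no shift. Only miR-30e (0.637) and miR-99b (0.819) there went the opposite way. Just below that mean, miR-455 (0.787) also went the opposite way.

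After 3 min against control the arm shifts stood at 1.37-fold for miR-23b (0.916 to 2.07), 1.33-fold for miR-27b (1.01 to 1.77), 1.18-fold for miR-24-2 (1.05 to 1.32) and 1.12-fold for miR-27a (1.04 to 1.22). None reached 1.5-fold towards the guide, as was so for all 51 hairpins (0%), and none reached it towards the passenger (5.88% of the 51 did). Between the exposures, 5 min against 3 min, the shift was 2.08-fold for miR-23b (1.11 to 4.13), 1.60-fold for miR-27b (1.08 to 2.39) and 1.46-fold for miR-27a (1.31 to 1.62). For miR-24-2 it was 1.12-fold (0.974 to 1.30), an interval that held no shift. Here 1 of the 4 reached 2-fold and 2 reached 1.5-fold, against 5.88% and 9.80% of the 51. The hairpin past 2-fold was again miR-23b, with the limit given above, so nothing is read from these shares. Towards the minor arm 0 of the 4 reached 2-fold (1.96%) or 1.5-fold (9.80%).

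**Figure D5:**
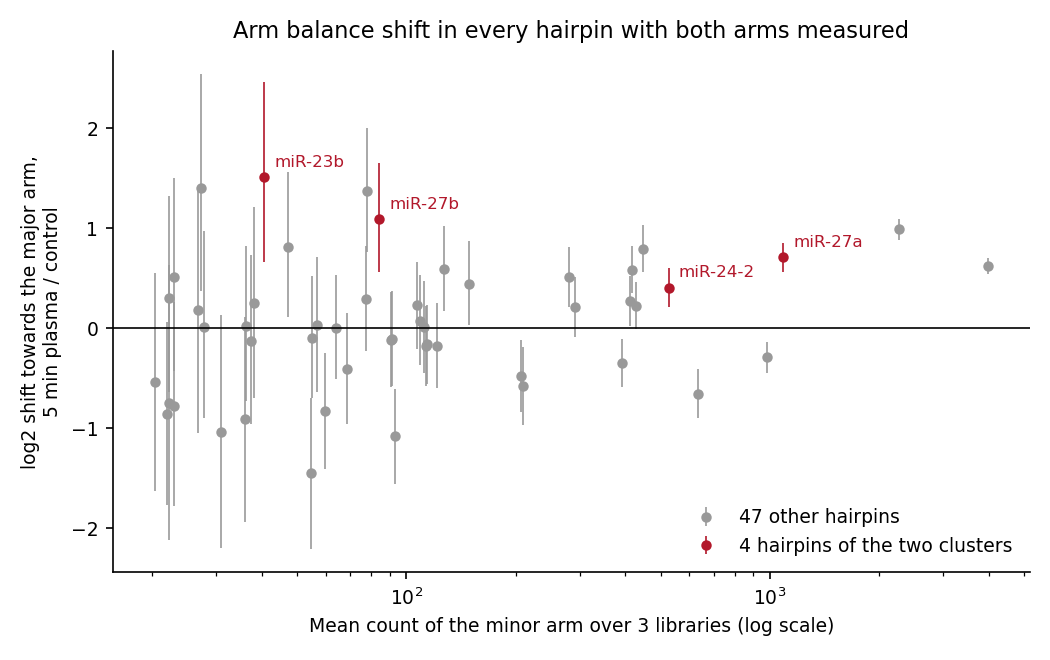
Log2 arm shift of 51 hairpins, 5 min plasma over control, against the mean count of the minor arm over 3 libraries (log scale); positive values go towards the major arm, and bars are exact conditional 95% intervals. The 4 hairpins of these clusters lie above 0, between 1.32-fold and 2.85-fold, and the 47 others lie on both sides. The highest, miR-23b, is among the 51 through its passenger counts in the control and 3 min libraries.

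The guides of a cluster come from the same primary transcript, and their ratios within a library were compared as a scaling-free check. miR-23a-3p over miR-27a-3p was 1.24-fold higher after 5 min than in control (1.15 to 1.33), whereas miR-23b-3p over miR-27b-3p was 0.924 of control (0.871 to 0.980). The 2 clusters thus differed in direction after 5 min against control. After 3 min the ratios stood at 1.07 (0.997 to 1.14) and 0.966 (0.917 to 1.02), and both intervals held no difference. For 5 min against 3 min, miR-23a-3p over miR-27a-3p stood at 1.16 (1.08 to 1.25). miR-23b-3p over miR-27b-3p stood at 0.956 (0.900 to 1.02), an interval that held no difference. miR-23a-3p took 38.5% of the miR-23 guide counts in the control library (37.1 to 39.8), 40.0% at 3 min (38.6 to 41.4) and 43.6% at 5 min (41.9 to 45.3). miR-27a-3p took 33.7% of the miR-27 guide counts in the control library (33.3 to 34.1), 33.0% at 3 min (32.6 to 33.4) and 31.9% at 5 min (31.4 to 32.4). After 5 min, the arm from the MIR23A cluster thus had a larger share of the miR-23 pair than in control and a smaller share of the miR-27 pair. These shares rest on how reads were assigned between guides that differ at position 19.

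Of the miR-24 passengers, the MIR24-1 arm was scarce: miR-24-1-5p had 19 control counts, 24 at 3 min and 10 at 5 min, so miR-24-2-5p made up 97.5%, 95.7% and 97.0% of the pair. With so few reads, the arm shift of miR-24-3p over miR-24-1-5p was 1.11-fold after 5 min (0.491 to 2.68) and 0.680 after 3 min (0.352 to 1.30). Both intervals held no shift. Adding miR-24-1-5p to the passenger left the log2 shift of miR-24-2 after 5 min at 0.40, against 0.41 without it.

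hsa-miR-3074-5p comes from the strand opposite MIR24-1 and shares 20 positions with the site of miR-24-3p there, so the pair could exchange reads if strand was ignored in counting, which is not given in the sources used here. Its counts were 1324 in the control, 1045 at 3 min and 684 at 5 min, and it was 1.15-fold lower after 5 min than in control (1.05 to 1.26). Relative to miR-24-3p it stood at 0.884 of control after 5 min (0.802 to 0.973). miR-3074-3p, which shares 19 positions with miR-24-1-5p, had 385, 317 and 172 counts and was 1.33-fold lower after 5 min (1.11 to 1.60). It had many times the reads of miR-24-1-5p at the same site.

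The only other listed miRNA with the seed of a member, beside miR-24-1-5p, was miR-23c, with 15, 15 and 7 counts among the 2281 listed miRNAs that have a RefSeq sequence. The miR-23 seed therefore rested on miR-23a-3p and miR-23b-3p in these libraries. miR-128-3p, whose seed overlaps that of miR-27 by an offset, had 1444, 1540 and 564 counts. It was 1.52-fold lower after 5 min than in control (1.38 to 1.68) and 1.16-fold higher after 3 min (1.08 to 1.25), a course unlike that of the miR-27 guides.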

How the data were processed

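The authors deposited whole-number read counts per mature miRNA, 1 file per library. Per the labels' protocols, Trizol RNA went into a NEBNext small-RNA kit, which adds no molecular identifier, so PCR copies cannot be told from molecules. The submitters' processing notes list Bowtie2, bedtools and edgeR without versions or roles. No genome build, strand setting or multiple-match rule is given in the sources used here. Depth was 1045482, 966943 and 615645 counts (control, 3 min, 5 min), and 3 counts, the limit a 0 allows, came to 2.87, 3.10 and 4.87 CPM.

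From these counts, TMM factors (1.000, 0.991 and 1.008) were computed with edgeR 4.0.16 in R 4.3.3 over the 231 miRNAs whose mean count reached 20. Ratios carry Clopper-Pearson 95% intervals of the binomial split, and arm shifts exact conditional odds-ratio intervals (Python 3.11.15, scipy 1.17.1). Both steps were also run on simulated counts with counting error alone and scaling by library total. That run cannot speak to replicate error. With 1 library per group, edgeR's test could not be run. Alternatives were 6 other scalings (DESeq2 1.42.0 size factors among them), other count minimums, a 1.5-fold rule and pooled paralogs. Members and lists were chosen with earlier results of these data known; the within-cluster ratios and the 1.5-fold arm rule were added after values were seen. The rule for named miRNAs took all members, their companion and seed-sharing miRNAs and, for each of the 9 members past the count minimum, the 3 others nearest in log2 ratio. Outside it, the text names cell type markers and some other hairpins picked with their values in view.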

Additional observations from a re-analysis of the deposited data

How the results depend on the processing

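No paired analysis was possible because each group holds 1 library, and for the same reason no replicate could be left out. Depth limits the passenger arms most: miR-23b-5p rests on 14 reads after 5 min and miR-23a-5p on 3. Arm shifts stayed within their counting intervals when paralogs were pooled or miR-24-1-5p was added. Those intervals are wide for miR-23b and miR-27b. After 5 min against control, the log2 shift of miR-27b was 1.09, and 0.81 (0.67 to 0.95) with the miR-27 paralogs pooled, below the 2-fold rule. No member was 2-fold higher under any alternative, and 3 of 9 members changed sign with the scaling after 5 min, 1 of 9 after 3 min and 4 of 9 between the exposures. TMM and DESeq2 size factors over all listed miRNAs moved the median of all 231 miRNAs by -0.17 and -0.21 (log2) after 5 min. The ratio of each member moved by the same amounts. Why these scalings differ from the main one was not tested.

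After 5 min against control, 2 members were at least 2-fold lower under both of these scalings (miR-27b-5p joined miR-23b-5p) and with no count minimum, 0 with a mean of at least 100 counts, and 3 at 1.5-fold. The members' median log2 ratio was -0.19 with TMM over all listed miRNAs, -0.23 with DESeq2 size factors over all, -0.22 with no minimum and 0.048 at 100 counts, the last 2 from a changed set of members. In the same 2 scalings the miR-23 total stood at 0.0065 and -0.033, the miR-27 total at -0.043 and -0.082 (0.095 with DESeq2 over filtered miRNAs) and miR-24-3p at -0.19 and -0.23.

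After 3 min the median was -0.15 with TMM over all, -0.17 and -0.13 with DESeq2 over all and over filtered miRNAs, -0.13 with no minimum and -0.013 at 100 counts. The miR-23 total stood at -0.034 and -0.050 with TMM and DESeq2 over all, miR-27 at -0.037 and -0.053 (-0.013 with DESeq2 over filtered miRNAs, 0.0008 with the library total without the 10 most abundant miRNAs), and miR-24-3p at -0.15 and -0.17 (-0.13 over filtered).

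For 5 min against 3 min, 1 member (miR-23b-5p) was 2-fold lower with TMM or DESeq2 over all, and 1 at 1.5-fold. The median was -0.053 and -0.076 in those scalings and -0.019 with no minimum. The miR-23 total was 0.041 and 0.018, miR-27 -0.0056 and -0.029 (0.13 with the library total), and miR-24-3p -0.041 and -0.064.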

Other observations

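The miRNAs nearest to each member over the log2 ratios of the 3 min and 5 min libraries to control were found among 124 others whose mean count reached 100. The points share 3 libraries and 1 control, and nearness is a description. miR-27b-5p lay nearest to let-7a-3p, at a distance of 0.00884, with 663, 468 and 208 counts of let-7a-3p in control, 3 min and 5 min libraries, then to let-7b-3p (0.189) and miR-125b-1-3p (0.206). These 3 are minor arms of their own hairpins. miR-23b-5p lay nearest to miR-301a-5p (0.138), miR-125b-1-3p (0.367) and miR-340-3p (0.501). miR-27a-5p lay nearest to miR-99b-5p (0.108), miR-423-3p (0.121) and miR-7-5p (0.126), and miR-24-2-5p to miR-340-5p (0.104), miR-744-5p (0.123) and miR-218-5p (0.133). In contrast, miR-99b-5p, miR-423-3p, miR-7-5p and miR-340-5p are the major arms of their hairpins.

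Of the guides, miR-23a-3p lay nearest to miR-140-3p (0.0288), miR-30a-5p (0.0321) and miR-185-5p (0.0587). Both miR-23b-3p and miR-27a-3p had miR-191-5p, let-7f-5p and miR-21-5p as their nearest, at 0.0184, 0.0427 and 0.0681 for miR-23b-3p and 0.0151, 0.0451 and 0.0645 for miR-27a-3p. miR-27b-3p lay nearest to miR-361-5p (0.0142), miR-30e-5p (0.0457) and miR-155-5p (0.0463), and miR-24-3p to miR-148b-3p (0.0589), let-7f-5p (0.0824) and miR-532-5p (0.105).

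Some hairpins outside these clusters had arm shifts of like size after 5 min against control. These examples were picked with their values in view. The shift was 2.64-fold for miR-29b-3p over miR-29b-1-5p (1.30 to 5.81), 2.59-fold for miR-16-5p over miR-16-1-3p (1.70 to 4.01) and 1.99-fold for miR-125b-5p over miR-125b-1-3p (1.85 to 2.14). In the opposite direction, miR-3065-3p over miR-3065-5p stood at 0.367 of control (0.217 to 0.619) and miR-335-3p over miR-335-5p at 0.473 (0.341 to 0.657).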
